A study of Saccharomyces cerevisiae with 21 samples.

Results

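The 66 genes described here are the nuclear genes of Saccharomyces cerevisiae that code for proteins of the mitochondrial ribosome and carry a standard name of MRPL, MRPS, RSM or MRP with a number, out of 6692 genes in the deposited count table. MRP8 was left out although its name has this form. The names put 38 of them in the large subunit (the MRPL genes with MRP7, MRP20, MRP35 and MRP49) and 28 in the small subunit (the other MRP genes, MRPS and RSM). They lie on 14 chromosomes, and all 66 were among the 6254 genes with enough counts to be tested.

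The mitochondrial ribosome translates the few messenger RNAs made from the mitochondrial genome, most of which encode subunits of the respiratory chain and of ATP synthase. Its RNAs and the protein Var1 are made inside the organelle, whereas its other proteins are transcribed in the nucleus, translated in the cytoplasm and imported. Sth1 is the ATPase of RSC, a remodeller that moves nucleosomes away from promoters, and Rap1 is a general regulatory factor best known for activating the genes of cytoplasmic ribosomal proteins.

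Polyadenylated RNA was measured in 21 libraries, 3 biological replicates in each of 7 groups. The comparisons address how RNA levels change on depletion of Sth1, of Rap1 and of both, and do not separate synthesis from decay. IAA and DMSO were each given to STH1-AID cells, to RAP1-AID cells and to a strain with both degrons (STH1-AID RAP1-AID, the double strain), and WT cells were left untreated. AID is a degron: with the auxin IAA (500 µM) the F-box protein osTIR marks the tagged protein for destruction, and DMSO is the solvent alone. All strains, WT included, were MATa derivatives of BY4741 with the alleles his3D1, leu2D0, met15D0 and ura3D0 and with RPB3 tagged as RPB3-3xFLAG, growing exponentially in rich glucose medium when treated. The degron strains, each a single strain, also carried osTIR under the GPD1 promoter at LEU2 and a 3V5-IAA7 tag on Sth1, on Rap1 or on both, and WT carried neither, so that tag, osTIR and solvent cannot be told apart in comparisons of DMSO-treated cells with WT. The degron acts on the protein, so the counts do not measure how far Sth1 or Rap1 was depleted. No cells without a degron were given IAA, so an effect of IAA itself cannot be told apart from depletion.

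Libraries held 20902000 to 29091000 S. cerevisiae counts and 1144360 to 3486100 counts from Schizosaccharomyces pombe, of which a fixed amount of cells was added before RNA extraction as a spike-in. Values below are normalised read counts, that is, counts divided by a size factor from the S. pombe genes, so a change in total mRNA per cell stays in them. S. cerevisiae counts per S. pombe count were 22.2 in STH1-AID DMSO replicate 3, against 11.8 and 12.3 in the other replicates, 21.2 in RAP1-AID DMSO replicate 3, against at most 16.4, and 18.1 in DMSO replicate 1 of the double strain, against 10.5 and 8.28. These DMSO libraries stand apart, and the main counts of members called are also given without them. The WT replicates differed too, at 10.6, 17.5 and 14.3 in order. A gene was called changed when its adjusted p (edgeR's quasi-likelihood test over all 6254 genes, Benjamini-Hochberg) was under 0.05 and its log2 fold change was over 1 in size. Raw counts of the 66 genes ran from 72 to 4467 per library.

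The stretches of DNA upstream of 8 members are printed because these genes carry the contrasts described below: MRPL44, MRPL23 and MRPL24 had the lowest log2 fold changes on Sth1 depletion, RSM19, MRP20 and MRPL15 the highest, and MRPL49 and MRP7 fell on Rap1 depletion. MRPL49 and MRP7 were chosen after their values were seen. Each stretch runs 5′ to 3′ on the coding strand from 250 to 101 bases before the start codon, in the RefSeq sequence of build R64. Capitals mark matches, on either strand, to CGCG and to runs of 7 or more A or T, which are motifs associated with RSC, to TTACCCG, the core of the Reb1 site, and to the Abf1 consensus. The study links RSC to CG(C/G)G, whose other form, CGGG, was neither searched nor marked. Reb1 and Abf1 are general regulatory factors like Rap1.
MRPL44: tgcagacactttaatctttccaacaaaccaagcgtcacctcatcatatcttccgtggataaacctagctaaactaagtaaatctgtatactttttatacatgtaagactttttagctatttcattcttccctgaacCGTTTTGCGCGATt
MRPL23: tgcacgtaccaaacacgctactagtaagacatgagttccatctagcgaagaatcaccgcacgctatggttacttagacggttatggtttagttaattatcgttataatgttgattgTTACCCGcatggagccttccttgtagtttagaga
MRPL24: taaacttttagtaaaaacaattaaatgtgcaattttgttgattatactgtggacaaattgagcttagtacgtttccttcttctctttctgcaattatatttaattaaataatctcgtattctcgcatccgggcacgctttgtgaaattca
RSM19: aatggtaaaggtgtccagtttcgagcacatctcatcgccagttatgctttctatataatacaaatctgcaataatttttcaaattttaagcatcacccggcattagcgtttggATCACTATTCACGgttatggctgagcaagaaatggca
MRP20: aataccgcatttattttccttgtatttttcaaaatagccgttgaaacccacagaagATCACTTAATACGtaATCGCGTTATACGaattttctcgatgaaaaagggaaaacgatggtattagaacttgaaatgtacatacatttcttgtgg
MRPL15: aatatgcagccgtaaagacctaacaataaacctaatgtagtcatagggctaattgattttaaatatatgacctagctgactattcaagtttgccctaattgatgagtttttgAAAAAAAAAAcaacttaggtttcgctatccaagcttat
MRPL49: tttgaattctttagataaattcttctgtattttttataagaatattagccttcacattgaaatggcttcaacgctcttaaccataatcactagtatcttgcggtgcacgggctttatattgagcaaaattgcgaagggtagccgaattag
MRP7: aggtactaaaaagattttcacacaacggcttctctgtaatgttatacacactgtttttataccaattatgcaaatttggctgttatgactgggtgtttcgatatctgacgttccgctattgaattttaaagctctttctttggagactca

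These stretches lie at XIII:721504-721653 for MRPL44 (minus strand), XV:611749-611898 for MRPL23 (plus), XIII:649786-649935 for MRPL24 (plus), XIV:695428-695577 for RSM19 (minus), IV:1277396-1277545 for MRP20 (plus), XII:759230-759379 for MRPL15 (plus), X:246240-246389 for MRPL49 (plus) and XIV:622529-622678 for MRP7 (minus). The MRPL44 stretch begins inside ORA1 and the MRPL49 stretch inside PHS1, the upstream genes on the same strand. In MRPL44 a CGCG lies within the Abf1 match, and in MRP20 a CGCG lies within the second of its Abf1 matches. MRPL23 holds the only Reb1 match of the 8, and the stretches of MRPL24, MRPL49 and MRP7 hold no match to the motifs searched. CGGG, which was not searched, can be read in the stretches of MRPL24 and MRPL49, among others. No match to the Rap1 consensus was found in the 300 bases from 250 before to 50 after the start codon of any of the 66 genes, against 0.785% of 5988 such windows in the genome, which says only that these letters are not in this window.

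Depletion of Sth1 lowered 38 of the 66 genes and raised none, and the members spread widely: the median log2 fold change was -1.24, the lowest -2.73 (MRPL44) and the highest 0.54 (RSM19). Among all tested genes 42.7% were called lower and 4.69% higher, with a median of -0.84, so the members' share of 57.6% lay above a background that was itself large. On the spike-in scale no member had an unadjusted p under 0.05 in the higher direction. DESeq2 also called 0 higher and 38 lower, against 4.51% and 42.6% of all genes. The spread among members (SD of the log2 fold changes 0.84) was smaller than that among all genes (1.10) and larger than the median SE of a single member (0.31). Every library of IAA-treated cells lay below every library of DMSO-treated cells for 47 members, which was also the case for 56.7% of all genes, and for no member did all IAA libraries lie above all DMSO libraries.

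The scale of this comparison rests on the spike-in. When libraries were scaled by TMM, a factor from the S. cerevisiae counts themselves that sets the bulk of genes to no change, the median of all genes moved up by 0.89, 14 members were called lower and 4 higher, and their median was -0.35. Under that scaling 15.4% of all genes were called lower and 15.4% higher. An unadjusted edgeR p under 0.05 was reached there by 21 members in the higher direction and 37 in the lower. Over all 6254 genes the counts were 2538 and 2376. Fewer S. cerevisiae cells against the spike-in and less RNA per cell cannot be told apart in these bulk samples. With STH1-AID DMSO replicate 3 left out, 29 members were called lower, all of them among the 38, against 31.2% of all genes, and the median was -0.92 for the members and -0.51 for all genes.

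**Figure D1:**
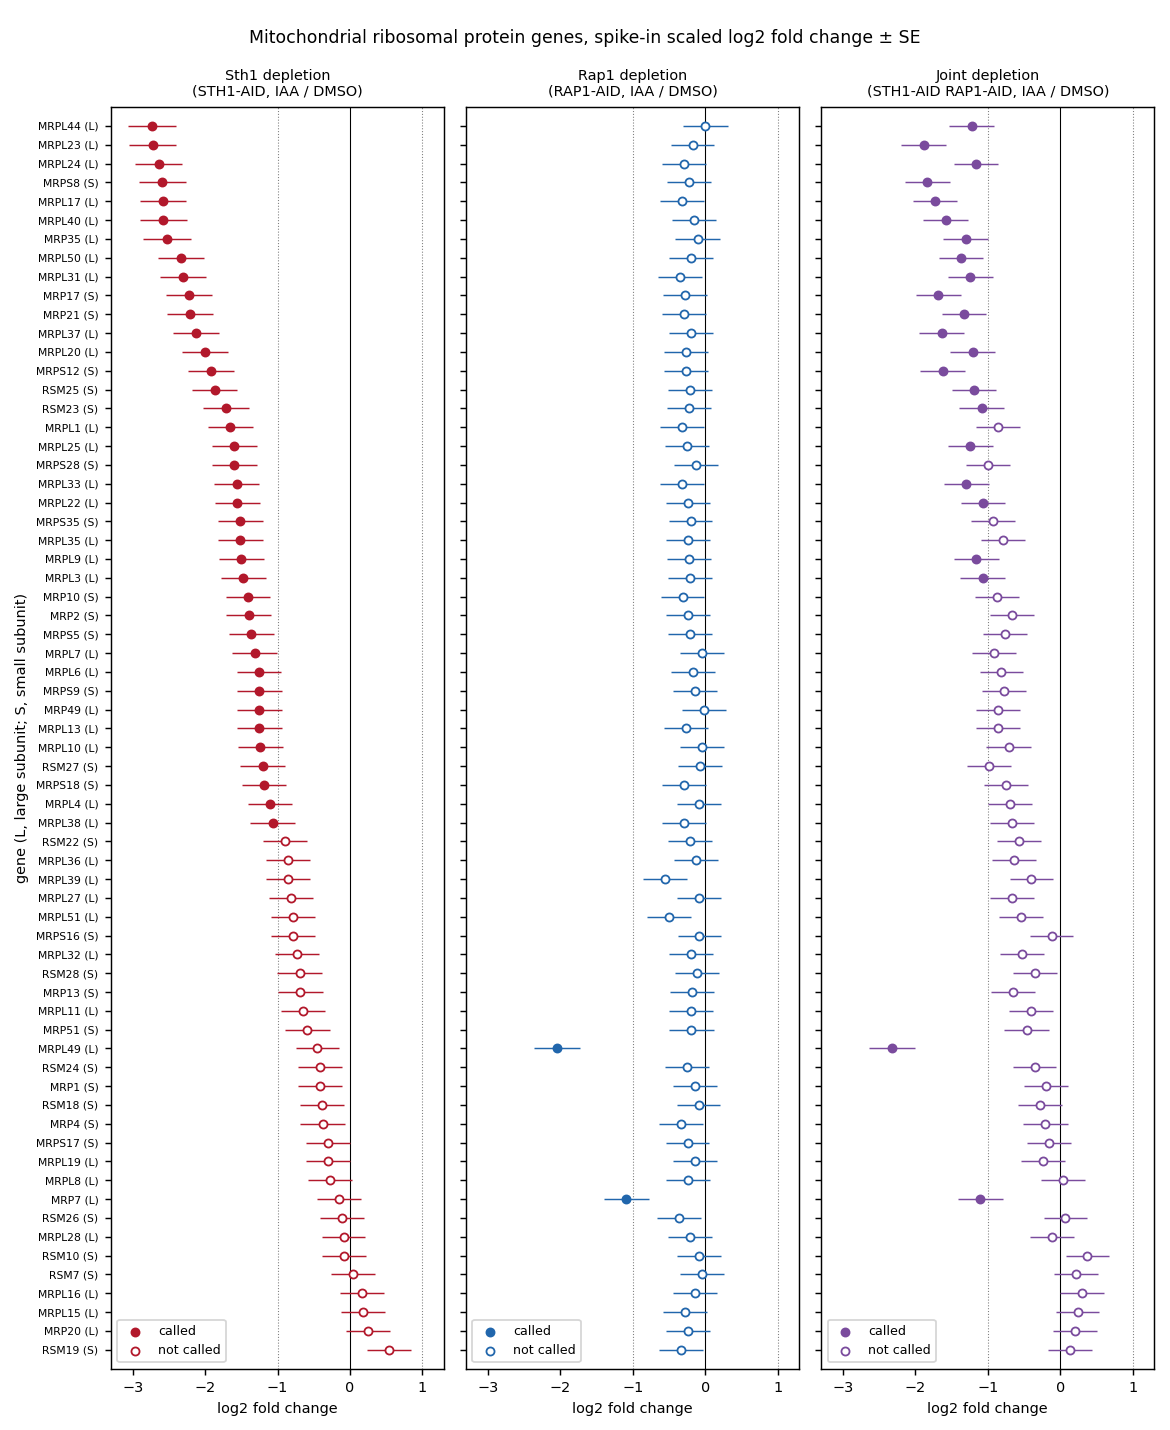
Log2 fold change (x axis) of each of the 66 genes (rows, ordered by the Sth1 response) for IAA over DMSO in the STH1-AID strain (left), the RAP1-AID strain (middle) and the double strain (right). Points are estimates from 3 libraries against 3, lines are ± 1 SE and filled points were called. The Sth1 values run from -2.73 to 0.54, while 64 of the 66 Rap1 values lie between -0.56 and 0.00 and those of MRPL49 and MRP7 lie at -2.04 and -1.09.

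MRPL44, a large subunit protein without a bacterial counterpart, had 62.9, 87.6 and 89.1 normalised counts in IAA-treated STH1-AID cells, against 458, 414 and 722 in DMSO-treated cells. The groups did not overlap, and the log2 fold change was -2.73 ± 0.33 (SE, n = 3 each, edgeR adjusted p = 8.04e-15). It is the only member with an intron, and fragments across the junction were not counted, so its level is understated in every library.

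MRPL23, the counterpart of the universal protein uL13, had 138, 157 and 164 counts with IAA, against 813, 868 and 1363 with DMSO. Its log2 fold change was -2.73 ± 0.32. MRPL24, the counterpart of bacterial bL28, had 107, 152 and 151 counts with IAA, against 658, 734 and 1163 with DMSO, and fell by 2.64. MRPS8, the counterpart of uS8 and the lowest of the small subunit, had 82.0, 104 and 103 counts with IAA, against 482, 453 and 810.0 with DMSO, and fell by 2.59 on the log2 scale. MRPL17, whose protein mL46 is specific to mitochondria, had 176, 255 and 228 counts with IAA, against 988, 1140.2 and 1819 with DMSO, and fell by 2.58. In all of these the highest IAA library stayed far under the lowest DMSO library, and replicate 3 was the highest of the DMSO libraries.

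The next members in order were MRPL40 (uL24, -2.58), MRP35 (bL35, -2.52), MRPL50 (bL9, -2.33), MRPL31 (mL60, -2.30) and MRP17 (bS6, -2.23). Their adjusted p-values by edgeR ran up to 2.98e-11. These 10 members stayed called lower under TMM scaling, with log2 fold changes of -1.84 to -1.33. The 10 include 8 large subunit and 2 small subunit genes.

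The other 28 members called lower fell into both subunits. In the large subunit these were MRPL1 (uL1, of the stalk at the tRNA exit side), MRPL9 (uL3), MRPL7 (uL5), MRPL6 (uL6), MRPL38 (uL14), MRPL10 (uL15), MRPL22 (uL22, at the exit tunnel), MRPL4 (uL29) and MRPL33 (uL30), which have counterparts in all ribosomes and had log2 fold changes of -1.65 to -1.07. The mitochondria-specific proteins among them were those of MRPL3, MRPL13, MRPL20, MRPL25, MRPL35, MRPL37 and MRP49, at -2.13 to -1.25. In the small subunit they were MRPS5 (uS5), MRPS9 (uS9), MRPS18 (uS11), MRPS12 (uS12, of the decoding centre), MRP2 (uS14) and MRPS28 (uS15) at -1.92 to -1.19. MRP21 (bS21) was at -2.20. RSM23 (mS29, a GTP-binding protein related to human DAP3), RSM25, RSM27, MRPS35 and MRP10 (mS37, with paired cysteine motifs), all mitochondria-specific, were at -1.87 to -1.21. Of these 28, MRP21, MRPL37, MRPL20 and MRPS12 stayed called lower under TMM scaling. The 9 members lost when STH1-AID DMSO replicate 3 was left out were MRP49, MRPL4, MRPL6, MRPL7, MRPL13, MRPL38, MRPS9, MRPS18 and RSM27, with log2 fold changes of -1.32 to -1.07 over all libraries.

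The remaining 28 members were not called. The ones at the top of the order had counts that overlapped between IAA and DMSO. RSM19 (uS19, of the small subunit head) had 1020.4, 1657 and 1387 counts in IAA-treated STH1-AID cells, against 769, 707 and 1332 in DMSO-treated cells, a log2 fold change of 0.54 ± 0.30 (edgeR adjusted p = 0.112). Only DMSO replicate 3 reached the range of the IAA libraries. MRP20 (uL23, at the mouth of the exit tunnel) had 1226, 1932 and 1539 counts with IAA, against 919, 1080.3 and 1953 with DMSO, a log2 fold change of 0.25. MRPL15, a mitochondria-specific protein of the large subunit (mL57), had 895, 1339 and 1262 counts with IAA, against 796, 839.9 and 1452 with DMSO, a log2 fold change of 0.18. MRPL16 (uL16) had 1470.5, 2459 and 1878 counts with IAA, against 1369.8, 1459 and 2336 with DMSO, a log2 fold change of 0.17. RSM7 (uS7) had 1392, 1981 and 1789.8 counts with IAA, against 1383, 1341 and 2308 with DMSO, a log2 fold change of 0.04. In all 5 genes the lowest IAA library lay above DMSO replicates 1 and 2 and below replicate 3, and none of the differences was called on the spike-in scale. Under TMM scaling RSM19, MRP20, MRPL15 and MRPL16 were called higher, at 1.42, 1.16, 1.07 and 1.04 (edgeR adjusted p of 1.06e-10 for MRPL15 to 6.30e-09 for RSM19).

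**Figure D2:**
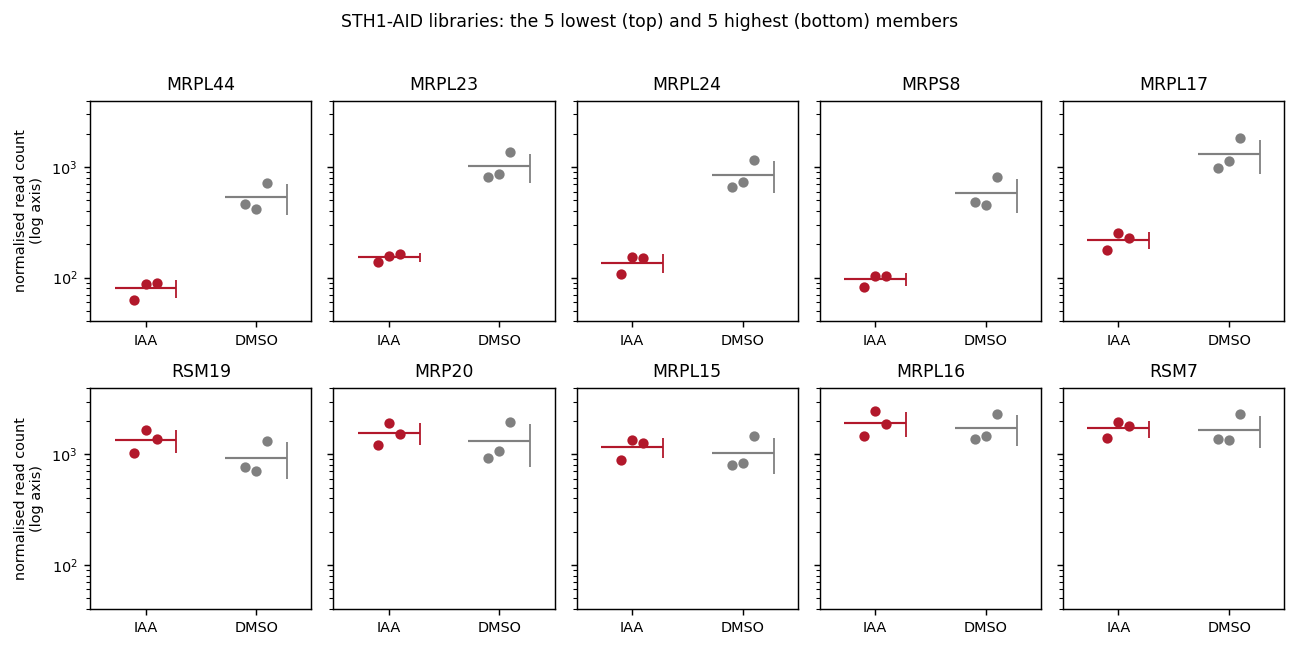
Normalised read counts (log axis) of the 5 members with the lowest (top) and the 5 with the highest (bottom) log2 fold change on Sth1 depletion, in STH1-AID cells with IAA (left, red) and DMSO (right, grey). Points are libraries, bars are means and the thin lines ± 1 SD (n = 3). The groups are apart in the top row, for example at most 89.1 with IAA and at least 414 with DMSO for MRPL44, and overlap in the bottom row.

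RSM10 (uS10, -0.08), MRPL28 (mL40, -0.09), RSM26 (mS42, related to superoxide dismutases, -0.11), MRP7 (bL27, -0.15) and MRPL8 (bL17, -0.27) followed, all below 0 on the spike-in scale and above 0 under TMM scaling. The other 18 members not called lay between -0.90 and -0.30 on the spike-in scale. They too lay above 0 under TMM scaling, for example RSM22 at 0.004 and MRPL19 at 0.58. In the large subunit these were MRPL11 (uL10) and MRPL19 (uL11), both at the base of the stalk where translation factors bind, MRPL49 (bL21), MRPL36 (bL31), MRPL32 (bL32), MRPL39 (bL33), MRPL27 (mL41) and MRPL51 (mL43). In the small subunit they were MRP4 (uS2), MRPS17 (uS17), MRP51 (bS1), MRPS16 (bS16), RSM18 (bS18), RSM24, RSM28, MRP1, MRP13 and RSM22, a protein with a methyltransferase-like fold. MRPL19 shares part of its transcribed strand with YNL184C, and its fragments there were counted for both genes. MRP4, MRPL9, MRPL38, MRPL51 and RSM7 overlap reading frames on the opposite strand, which strand-specific counting keeps apart.

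Both subunits held members at each end of the range on Sth1 depletion. In the large subunit 24 of 38 members were called lower with a median of -1.26, and in the small subunit 14 of 28 with a median of -1.04. By the uniform ribosomal protein names in the RefSeq annotation, 27 members have counterparts in all ribosomes, of which 18 were called lower (median -1.25), 14 have bacterial counterparts, of which 5 were called lower (median -0.82), and 24 are specific to mitochondria, of which 15 were called lower (median -1.33). RSM22 has no such name there. The share of all tested genes called lower was 42.7%, above that of the members with bacterial counterparts (35.7%) and below that of both subunits. Under TMM scaling 10 large subunit and 4 small subunit members were called lower (26.3% and 14.3%), against 15.4% of all genes, and by class 4, 5 and 5 were, in the same order. These are descriptions, and the differences between the classes were not tested.

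Depletion of Rap1 lowered 2 of the 66 genes, MRPL49 and MRP7, and raised none, while 4.09% of all tested genes were called lower and 0.4% higher. The members' median log2 fold change was -0.21 (all tested genes -0.26) and became 0.12 under TMM scaling, which moved the median of all genes by 0.33. On the spike-in scale without RAP1-AID DMSO replicate 3, the members' median was -0.075, against -0.13 for all genes. Under TMM scaling MRPL49 alone was called lower and no member higher, against 3.07% and 0.991% of all genes. On the spike-in scale MRPL49 and MRP7 were also the only members with an unadjusted p under 0.05. DESeq2 called the same genes lower and none higher, against 3.95% and 0.368% of all genes. Under TMM scaling 25 members had an unadjusted edgeR p under 0.05, 21 higher and 4 lower. Over all 6254 genes 1223 were higher and 541 lower by this measure. IAA libraries all lay below DMSO libraries for 31 members, against 55% of all genes.

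MRPL49 (YJL096W), the counterpart of bacterial bL21, had 175, 168 and 189.9 normalised counts in IAA-treated RAP1-AID cells, against 638, 644 and 915 in DMSO-treated cells. Its log2 fold change was -2.04 ± 0.32 (edgeR adjusted p = 9.43e-09), and it was called in every alternative tried for this comparison. MRP7 (YNL005C), the counterpart of bL27, which in bacteria reaches toward the site of peptide bond formation, had 1297, 1253 and 1216 counts with IAA, against 2554, 2395 and 3046 with DMSO. Its groups did not overlap either, and its log2 fold change was -1.09 ± 0.31 (edgeR adjusted p = 0.0112). MRP7 was not called under TMM scaling (-0.76, under the fold threshold), nor without replicate 3 of the DMSO cells or without any one of the 3 IAA replicates, where its edgeR adjusted p was 0.0648 to 0.102.

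MRPL39 (-0.56), MRPL51 (-0.49) and RSM26 (-0.37) came next and were not called (edgeR adjusted p of 0.692 and 0.784 for the first and the last). At the other end, MRPL44 had 682, 648 and 649 counts with IAA, against 628, 625 and 721 with DMSO, a log2 fold change of 0.00. MRP49 had 829.6, 826 and 833 counts with IAA, against 729, 811 and 981 with DMSO, a log2 fold change of -0.02. MRPL44, the gene with the lowest value on Sth1 depletion, thus had overlapping counts on Rap1 depletion. MRPL7 (-0.04), MRPL10 (-0.05) and RSM7 (-0.05) completed the 5 highest.

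**Figure D3:**
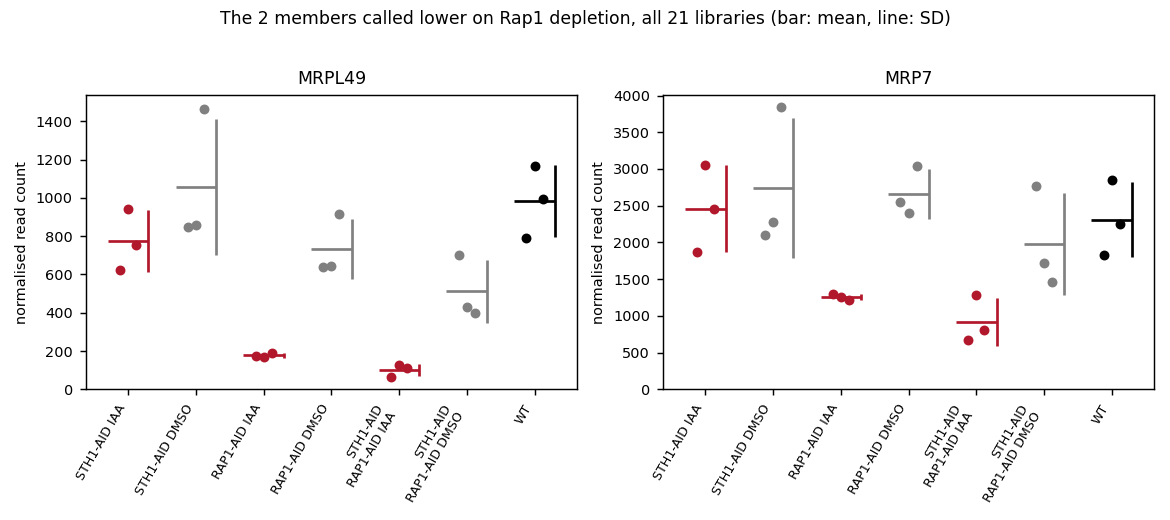
Normalised read counts of MRPL49 (left) and MRP7 (right) in all 21 libraries, by group, with IAA in red, DMSO in grey and untreated WT in black. Points are libraries, bars are means and thin lines ± 1 SD (n = 3). In the RAP1-AID strain and the double strain every IAA library lies below every DMSO library of the same strain for both genes.

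In STH1-AID cells MRPL49 had 621, 943 and 756 counts with IAA, against 847, 859 and 1466 with DMSO, groups that overlapped (-0.45 ± 0.30, edgeR adjusted p = 0.19). MRP7 had 1874, 3059.9 and 2449.7 counts with IAA, against 2106, 2276 and 3841 with DMSO, also overlapping (-0.15 ± 0.31). Both genes, not called on Sth1 depletion, were thus the only ones called on Rap1 depletion.

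Depletion of Sth1 and Rap1 together lowered 23 of the 66 genes (34.8%) and raised none, with a median log2 fold change of -0.78. Of all tested genes 32.6% were called lower and 3.49% higher, with a median of -0.67, so the members' share was close to the background. On the spike-in scale no member had an unadjusted p under 0.05 in the higher direction. DESeq2 called 0 higher and 23 lower, against 3.17% and 32.5% of all genes. IAA libraries all lay below DMSO libraries for 36 members, against 41.8% of all genes. In this strain same-numbered samples were taken as paired from correlations in these data, and the labels do not state a pairing. With the replicate as a block 6 of the 23 were still called, MRPL49, MRPL23, MRPS8, MRPL17, MRP17 and MRPL37, against 8.11% of all genes called lower. Without replicate 1 of the DMSO cells 8 members were called lower, against 17.1% of all genes, and the median was -0.42 for the members and -0.35 for all genes. Under TMM scaling 5 were called lower and 1, RSM10, higher, with a median of -0.09, against 6.57% and 8.65% of all genes. There 20 members had an unadjusted edgeR p under 0.05 in the higher direction and 31 in the lower, against 2281 and 2331 of all 6254 genes.

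MRPL49 was the lowest member, with 65.0, 128 and 113 counts in IAA-treated cells of the double strain, against 703, 429 and 401 in DMSO-treated cells. Its log2 fold change was -2.32 ± 0.32 (edgeR adjusted p = 7.46e-11, with the replicate block 0.00219). MRPL23 had 193, 278 and 283 counts with IAA, against 1253, 848 and 679.6 with DMSO, and fell by 1.88 (edgeR adjusted p = 5.10e-08, with the replicate block 0.0199). MRPS8 (-1.83), MRPL17 (-1.73) and MRP17 (-1.69) followed, with adjusted p-values of 0.0234 to 0.0369 by edgeR with the replicate block. At the other end RSM10 had 1187, 1565 and 1370.2 counts with IAA, against 1428, 943 and 812 with DMSO, and a log2 fold change of 0.37 that was not called (edgeR adjusted p = 0.303). MRPL16 had 1207, 1628 and 1539 counts with IAA, against 1668, 967 and 923 with DMSO, and a log2 fold change of 0.30. Both genes had overlapping groups, as did MRPL15 (0.24), RSM7 (0.22) and MRP20 (0.21).

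MRP7 had 665, 1289 and 809 counts in IAA-treated cells of the double strain, against 2764, 1719 and 1458 in DMSO-treated cells. The groups did not overlap, and its log2 fold change of -1.10 was called (edgeR adjusted p = 0.00128) but not with the replicate block (0.168). Of the 23 members called on joint depletion, 21 were also called on Sth1 depletion, which is 91.3% of the joint calls and 55.3% of the Sth1 calls, and the remaining pair was MRPL49 and MRP7.

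**Figure D4:**
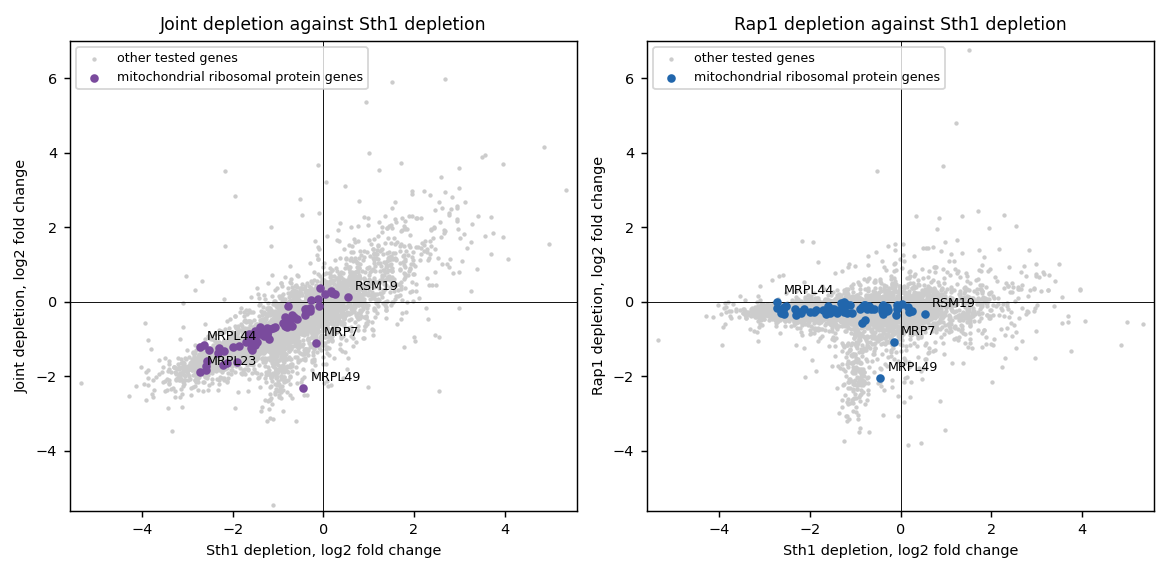
Log2 fold changes on joint depletion (left) and on Rap1 depletion (right) against those on Sth1 depletion, for the 66 genes (coloured) and all other tested genes (grey). Across the 66 genes the Pearson correlation was 0.83 on the left and -0.15 on the right, and MRPL49 and MRP7 lie below the members with similar Sth1 values in both plots.

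Across the 66 genes the log2 fold changes of Sth1 and joint depletion, which come from different libraries, had a Pearson r of 0.83 and a Spearman rho of 0.88, and without MRPL49 and MRP7 r was 0.95 over 64 genes. Across all tested genes r was 0.80. Sth1 and Rap1 depletion had r = -0.15 across the 66 genes. These values are across genes, which share libraries and spike-in scaling and are not independent replicates.

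The difference between effects was tested gene by gene as an interaction. The response to Rap1 depletion was higher (less negative) than that to Sth1 depletion for 35 members and lower for 1, MRPL49, while 32.3% of all tested genes were called higher and 6.27% lower. The largest differences were those of MRPL44 (2.74 ± 0.45), MRPL23 (2.55), MRPL40 (2.43), MRP35 (2.42) and MRPS8 (2.36). For MRPL49 the difference was -1.59 ± 0.43 (edgeR adjusted p = 0.00128). Under TMM scaling 15 members were called higher and 5 lower (MRPL49, MRP7, RSM19, MRP20 and MRPL15), against 17.3% and 15% of all genes. With STH1-AID DMSO replicate 3 left out, 18 were called higher and 3 lower (MRPL49, MRP7 and RSM19), against 23.7% and 9.53% of all genes. With STH1-AID IAA replicate 1 left out, 26 were called higher and 2 lower (MRPL49 and MRP7), against 25.7% and 6.65%.

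The response to joint depletion was higher than that to Sth1 depletion for MRPL44 (1.51 ± 0.44) and MRPL24 (1.48) and lower for MRPL49 (-1.87 ± 0.44, edgeR adjusted p = 0.00271), with 1.28% of all tested genes called in each direction. None of these 3 was called with the replicate block on the spike-in scale, where the adjusted p of MRPL49 was 0.118 by edgeR. With the block under TMM scaling all 3 were called, against 3.42% of all genes called higher and 6.4% lower. MRPL49 stayed called whichever library was left out. MRPL44 and MRPL24 were both lost when STH1-AID DMSO replicate 3, any STH1-AID IAA replicate, or DMSO replicate 2 or 3 or IAA replicate 2 of the double strain was left out, MRPL24 was lost without IAA replicate 3 of the double strain, and 11 members were called higher without its DMSO replicate 1, against 13.7% of all genes. Under TMM scaling 2 members were called higher and 2 lower, MRPL49 and MRP7, against 2.96% and 5.85% of all genes. The response to joint depletion was lower than that to Rap1 depletion for 8 members, led by MRPL23 (-1.71 ± 0.43), MRPS8 (-1.61), MRPL37 (-1.44), MRPL40 (-1.43) and MRPL17 (-1.41), and higher for none, while 9.79% of all genes were called lower and 1.5% higher. On the spike-in scale no member had an unadjusted p under 0.05 in the higher direction there. DESeq2 called 10 lower and 0 higher, against 11.4% and 1.55% of all genes. Under TMM scaling 7 members were called lower and none higher, against 6.4% and 5.9% of all genes. By an unadjusted edgeR p under 0.05, 34 members were lower and 17 higher there, against 2151 and 1832 of all 6254 genes. With the replicate block on the spike-in scale MRPL23 and MRPS8 remained called, as they did without RAP1-AID DMSO replicate 1 or 2 or IAA replicate 1 of the double strain. With the block under TMM scaling 6 of the 8 remained called, against 5.2% of all genes. Without DMSO replicate 1 of the double strain MRPL23 alone was called (2.24% of all genes), without RAP1-AID IAA replicate 1 or 3 or IAA replicate 3 of the double strain 4 members were (4.19% to 4.59% of all genes), and without DMSO replicate 3 of the double strain 19 were (24.2% of all genes).

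Without auxin no member was called in any of the degron strains (STH1-AID, RAP1-AID, double) against WT, by edgeR or by DESeq2. On the spike-in scale the count with an unadjusted p under 0.05 was 0, 1 and 1, in that order of strains. Of all tested genes 1.04%, 11.9% and 5.21% were called higher and 0.352%, 0.895% and 1.71% lower. The medians of the members were 0.14, 0.30 and -0.11, against 0.11, 0.52 and 0.01 for all genes. Without the DMSO libraries that stand apart they were -0.18, 0.16 and -0.45, against -0.21, 0.39 and -0.35 for all genes. Without WT replicate 1 they were 0.04, 0.20 and -0.23, against -0.05, 0.36 and -0.16 for all genes. Under TMM scaling of all libraries the members' medians were 0.01, -0.25 and -0.14, with 0 called. There 6, 42 and 27 members had an unadjusted edgeR p under 0.05, of which 2, 42 and 26 were lower. Over all 6254 tested genes 1777, 3212 and 3247 had one. On the spike-in scale MRPL49 had the lowest value in the double strain (-0.95 ± 0.31), with 703, 429 and 401 counts in its DMSO libraries, against 789.6, 1167 and 993 in WT. These groups did not overlap, but the log2 fold change was under the threshold of 1 (edgeR adjusted p = 0.0289), and it was called without replicate 1 of those DMSO cells or without replicate 1 of WT. In DMSO-treated RAP1-AID cells MRPL49 was again the lowest member (-0.43, edgeR adjusted p = 0.261). The lowest member value in that comparison was -0.98 under TMM scaling.

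Levels were compared between members per unit of length. In WT normalised counts per kilobase of coding length ran from 794 ± 198 for RSM22 to 5675 ± 1333 for MRPS12 (SD, n = 3), with a median of 1853 over the 66 genes, against 1075 over all tested genes. Below MRPS12 came MRPL39 (4237 ± 655) and MRP51 (3969 ± 987), whose spreads overlap, and above RSM22 came MRPL24 (982 ± 148), whose spread overlaps with that of RSM22. Across the 66 genes the log2 level per kilobase with DMSO in the STH1-AID strain and the log2 fold change on Sth1 depletion had a Pearson r of 0.22. That level and the fold change share the DMSO libraries, so this r does not measure whether level and response go together. For log2 coding length and the fold change on Sth1 depletion the Pearson r was 0.13.

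The promoters of the members were described by their upstream neighbour and by motifs in the same 300-base windows. In 38 members the nearest upstream gene points the other way (head-to-head) and in 28 it points the same way (tandem). For MRP4, MRPL19 and MRPL51 the gene taken as upstream is a reading frame that overlaps the member itself. On Sth1 depletion 16 of the 38 head-to-head members were called lower, with a median log2 fold change of -0.79, and 22 of the 28 tandem members, with a median of -1.45. These are 42.1% and 78.6% of the members, against 41.6% of 2991 head-to-head and 47.7% of 2791 tandem genes over all genes with a window, whose medians were -0.81 and -0.96. The Abf1 consensus was found in 19 of the 66 windows (28.8%), against 12% of 5988 windows in the genome. The 19 members with it had a median of -0.79 with 6 called lower, and the 47 without it a median of -1.47 with 32 called lower. These are 31.6% and 68.1%, against 25.3% of all genes with the match and 47.3% without it, whose medians were -0.59 and -0.94. Of the 5 members with the highest values, RSM19, MRP20 and MRPL16 hold an Abf1 match, MRPL15 and RSM7 do not, and all 5 are head-to-head. MRPL44, the lowest member, holds an Abf1 match as well.

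**Figure D5:**
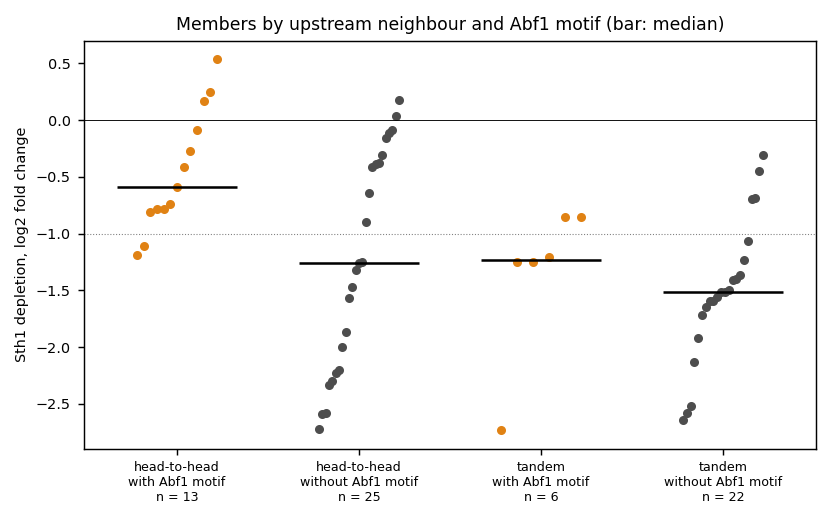
Log2 fold change on Sth1 depletion (y axis) of the 66 genes, split by the orientation of the upstream neighbour and by an Abf1 consensus match in the 300-base window (orange with, grey without). Points are genes and bars are medians. The medians are -0.59 (n = 13), -1.26 (n = 25), -1.23 (n = 6) and -1.51 (n = 22) from left to right, and the ranges overlap.

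CGCG was found in 20 members (30.3%, against 26.1% of windows in the genome), and those had a median of -0.67, while the 46 without it had a median of -1.26. Over all genes these medians were -0.93 with it and -0.87 without it. A run of 7 A or T was found in 25 members (37.9%, against 49.9%), with medians of -0.90 with it and -1.25 without it, against -0.88 and -0.88 for all genes. TTACCCG was found in 9 members (13.6%, against 7.1%), with medians of -1.41 with it and -1.21 without it, against -0.93 and -0.88. CGCG can overlap an Abf1 match, as in MRPL44 and MRP20, and CGGG, the other form of the study's motif, was not searched. These splits were made with the response known and are descriptions with no test.

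Other genes of mitochondrial translation were lowered on Sth1 depletion in varying shares, against 42.7% of all tested genes, and none was called higher. Of 13 further proteins of the mitochondrial ribosome whose names do not follow the MRP pattern 4 were called lower (IMG1, MNP1, RTC6 and FYV4, median of the 13 -0.67). Of 10 translation factors 9 were called lower, with a median of -1.69, from the release and recycling factor genes RSO55 (-3.18) and RRF1 (-2.63) to GUF1 (-1.19), and the elongation factor gene TUF1 was at -0.23. Of 13 mitochondrial aminoacyl-tRNA synthetase genes 8 were called lower (median -1.08), of 15 translational activators 9 (median -1.04), and of 9 genes for assembly, rRNA modification and membrane anchoring 5 (median -1.03). Under TMM scaling the counts called lower in these lists were 0, 4, 0, 2 and 1. MHR1 of the 13 ribosomal proteins and the activator PET122 were called higher there. Of all tested genes 15.4% were called lower and 15.4% higher under that scaling. On Rap1 depletion no gene of these 5 lists was called in either direction on either scale. On joint depletion 1, 4, 2, 4 and 1 were called lower on the spike-in scale, where 32.6% of all genes were. The 137 genes of cytoplasmic ribosomal proteins had 70 called lower on Sth1 depletion, 128 on Rap1 depletion (median -1.91) and 126 on joint depletion (median -1.79), which is 51.1%, 93.4% and 92% of them. The 66 genes described here had 57.6%, 3.03% and 34.8%, and all tested genes 42.7%, 4.09% and 32.6%. Under TMM scaling 1, 111 and 80 of the 137 were called lower in these comparisons, against 15.4%, 3.07% and 6.57% of all genes.

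VAR1, the protein of the small subunit encoded in the mitochondrial genome, was read at 59.7, 96.5 and 90.6 normalised counts in IAA-treated STH1-AID cells, against 78.9, 102 and 168 in DMSO-treated cells. The groups overlapped, and it was not called in any depletion. Its RNA is made in another compartment and was captured by a protocol for polyadenylated RNA, so its counts are not comparable with those of the nuclear members.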

How the data were processed

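The authors deposited raw counts, 1 table per species, as fragment counts of protein-coding genes without normalisation. Per the submitters' processing notes and the study's methods, reads were trimmed with cutadapt 1.9.1, mapped with BWA 0.5.9-r16 to R64 and ASM294v2 separately, kept if primary, properly paired and uniquely mapped with BamTools, and counted with featureCounts (Subread 1.5.1) by strand without spliced alignments. Where genes overlap on the same strand, a fragment counts toward each. Fragments across exon junctions were lost.

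The deposited counts were tested with edgeR 4.0.16 (R 4.3.3): genes kept by filterByExpr, library sizes from S. pombe median-of-ratios size factors as in the study, 1 quasi-likelihood fit of all 21 libraries with 7 group coefficients, and Benjamini-Hochberg adjustment over 6254 genes. A call required an adjusted p below 0.05 with a log2 fold change above 1 in size. Alternatives were TMM and S. cerevisiae size factors, DESeq2 1.42.0, no filter, each library left out, a replicate block, and, added after seeing the data, the block with TMM. The test was checked on simulated counts with known changes. These were drawn at exactly the S. pombe size factors, so the check does not cover error in the spike-in scale between replicates. Normalised counts are counts divided by the size factor.

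Members, lists and motifs were chosen with earlier results of these data known. Named members were the 10 lowest and 10 highest on Sth1 depletion, the 5 lowest and 5 highest on Rap1 and joint depletion, and the members called in other comparisons, at most 5 in each direction; others named were chosen after their values were seen.

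The labels call replicates biological. Deviations of same-numbered IAA and DMSO libraries from their group means correlated at 0.466, 0.685 and 0.635 in the double strain, so these were taken as paired, and at 0.0949 to 0.203 in the other strains, where not every pair passed 0.1 and no pairing was assumed. No replicates agreed within sampling noise. Of the identifiers, 6008 matched the reference annotation and all 66 members had the same coordinates there.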

Additional observations from a re-analysis of the deposited data

Results flagged for a closer look

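The responses of some members differed between depletions by the test of the difference itself (edgeR, interaction contrast). Rap1 depletion against Sth1 depletion gave 35 members with a positive difference and 1 with a negative one, with 32.3% and 6.27% of all tested genes called in these directions. The positive ones were led by MRPL44 (2.74), MRPL23 (2.55), MRPL40 (2.43), MRP35 (2.42) and MRPS8 (2.36), and the negative one was MRPL49 (-1.59). Joint against Sth1 depletion gave 2 positive differences, MRPL44 (1.51) and MRPL24 (1.48), and 1 negative one, MRPL49 (-1.87), with 1.28% of all genes called in each direction. None of these 3 was called with the replicate block on the spike-in scale, and all 3 were with the block under TMM scaling. Joint against Rap1 depletion gave 8 negative differences, led by MRPL23 (-1.71), MRPS8 (-1.61), MRPL37 (-1.44), MRPL40 (-1.43) and MRPL17 (-1.41), with 9.79% of all genes called lower. Of the 8, 2 (MRPL23 and MRPS8) were called with the replicate block on the spike-in scale, and 6 with the block under TMM scaling. The 3 comparisons share libraries with each other. The groups hold 3 libraries each, too few to test single libraries as outliers.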

How the results depend on the processing

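Counts of members called were the same without the filter on low counts, and with DESeq2 in all but 1 case (joint against Rap1 depletion, 10 instead of 8). DESeq2 called 11.4% of all genes lower in that case. Scaling by S. cerevisiae size factors, by TMM, and by TMM with a replicate block gave 14, 14 and 15 called lower and 4, 4 and 3 higher on Sth1 depletion, and 1, 1 and 1 lower on Rap1 depletion. Of all tested genes 16%, 15.4% and 17.4% were lower and 14.9%, 15.4% and 14.2% higher on Sth1 depletion. On Rap1 depletion 3.2%, 3.07% and 3.33% were lower. On joint depletion these settings gave 4, 5 and 6 lower and 2, 1 and 0 higher, and the replicate block on the spike-in scale gave 6 lower. Of all genes 5.95%, 6.57% and 7.69% were lower there and 9.08%, 8.65% and 8.07% higher, and with that block 8.11% were lower. For Rap1 against Sth1 depletion the same settings gave 5, 5 and 5 lower and 15, 15 and 15 higher. The shares of all genes were 15.5%, 15% and 15.3% lower and 17%, 17.3% and 17.8% higher. For joint against Sth1 depletion these settings gave 2, 2 and 2 lower and 3, 2 and 2 higher. The shares of all genes there were 5.36%, 5.85% and 6.4% lower and 3.65%, 2.96% and 3.42% higher. The replicate block on the spike-in scale gave 0 lower and 0 higher for joint against Sth1 depletion, where 0.304% and 0.208% of all genes were called. It gave 2 lower for joint against Rap1 depletion (3.1% of all genes), for which S. cerevisiae size factors gave 4 (4.69%). In STH1-AID and RAP1-AID cells, where no pairing was assumed, the block gave 38 and 2 called lower (41.3% and 4.41% of all genes). Each IAA library there correlated best with the DMSO library of its own number. Leaving out 1 library gave 29 to 41 lower on Sth1 depletion (31.2% to 49.2% of all genes) and 1 to 2 on Rap1 depletion (3.26% to 4.08%). It gave 8 to 32 on joint depletion (17.1% to 43.8%) and 0 to 1 in the double strain with DMSO against WT (1.09% to 4.01%). It gave 1 to 3 lower (4.33% to 9.53% of all genes) and 18 to 37 higher (23.7% to 36.1%) for Rap1 against Sth1 depletion. For joint against Sth1 depletion it gave 1 lower (0.56% to 3.13%) and 0 to 11 higher (0.448% to 13.7%). For joint against Rap1 depletion it gave 1 to 19 lower (2.09% to 24.2%). The block with TMM was chosen after seeing the data.

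Among named members 585 values under alternatives kept direction and call, 37 changed direction, 45 lost the call and 11 gained one. These 37 changes of direction were all in named members near 0 that were not called. Members not in this tally changed direction from further away. Over all 66 members, 61 lay below 0 on Sth1 depletion on the spike-in scale and 38 under TMM scaling. RSM22, for example, went from -0.90 to 0.004. On Sth1 depletion S. cerevisiae size factors and TMM gave 0.59 and 0.61 for MRPL8, 0.71 and 0.73 for MRP7, 0.76 and 0.78 for RSM26, 0.78 and 0.80 for MRPL28, and 0.78 and 0.81 for RSM10. On Rap1 depletion they gave 0.24 and 0.28 for RSM7, MRPL10 and MRPL7, and 0.26 and 0.31 for MRP49. With 1 library left out the log2 fold changes on Sth1 depletion ran from -0.42 to 0.021 for MRPL8, -0.34 to 0.17 for MRP7, -0.25 to 0.20 for RSM26, -0.25 to 0.22 for MRPL28, -0.23 to 0.24 for RSM10, -0.10 to 0.34 for RSM7 and -0.039 to 0.45 for MRPL16. On Rap1 depletion they ran from -0.11 to 0.086 for RSM7, -0.13 to 0.10 for MRPL10, -0.11 to 0.077 for MRPL7, -0.11 to 0.11 for MRP49 and -0.031 to 0.075 for MRPL44. The cause of these changes was not tested. The median SE of a member on Sth1 depletion was 0.31 on the spike-in scale and 0.082 under TMM scaling.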

Other observations

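Neighbouring genes were looked at after their values were seen. RSM19 and MRPS12, both of the small subunit, lie next to each other in the same direction on chromosome XIV with 229 bases between their coding sequences, RSM19 upstream. On Sth1 depletion the log2 fold change was 0.54 ± 0.30 for RSM19 and -1.92 ± 0.32 for MRPS12. MRPS12 had 585, 863 and 717 normalised counts in IAA-treated STH1-AID cells, against 2114, 2254 and 3815 in DMSO-treated cells, while the counts of RSM19 overlapped between these groups.

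MRPL49 lies downstream of PHS1, an enzyme gene of very long chain fatty acid synthesis, in the same direction, with 245 bases between them. PHS1 had a log2 fold change of -3.54 on Sth1 depletion and 0.15 on Rap1 depletion, against -0.45 and -2.04 for MRPL49. MRPL44 and its tandem neighbour ORA1 were both called lower on Sth1 depletion (-2.73 and -2.21), as were MRPL24 and GYL1 (-2.64 and -2.57).

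Of 37 head-to-head pairs with a tested neighbour, 16 had the member called lower on Sth1 depletion, and in 12 of these the neighbour was called lower too. In the other 21 pairs the neighbour was called lower in 6. Of 27 tandem pairs, 21 had the member called lower, and in 7 of these the upstream neighbour was called lower too, as it was in 2 of the other 6 pairs. The pairs include MRPL51 and MRPL19, whose neighbours overlap them. These counts are descriptions, and 42.7% of all tested genes were called lower in this comparison.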
